A study of Sus scrofa with 14 samples.

Results

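The genes described here encode the machinery of oxidative phosphorylation, and they were compared between passaged meniscus cells, meniscus tissue and cartilage of the pig. Members were all coding rows of the count table whose gene name began with NDUFA, NDUFB, NDUFC, NDUFS, NDUFV, UQCR, COX4I, COX5, COX6, COX7, COX8 or ATP5, together with SDHA to SDHD, CYC1 and the protein-coding genes of mitochondrial DNA. This gave 78 of 25880 rows, of which 13 were mitochondrially encoded and 65 nuclear. The nuclear members comprised 23 subunits of complex I, 7 complex I assembly factors, 3 subunits of complex II, 5 of complex III, 15 of complex IV, 9 of complex V, the supercomplex factor COX7A2L, and 2 genes caught by the prefix alone, NDUFA4L2 and ATP5S. A total of 75 members reached 10 reads summed over the libraries and were tested, among them all 13 mitochondrial genes and 62 nuclear genes. COX7B2, COX8C and COX8H had 0 reads in all libraries. The table leaves some rows without a name, and 17 tested nuclear rows that only the reference names as members of the same families, such as NDUFA4, NDUFA9, SDHC and COX8A, were outside the rule.

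The 14 poly(A)-selected libraries came from stifle joints of skeletally mature female pigs of 2 to 3 years. Passage 3 (P3) monolayer cells were grown from the outer zone (n = 2) and the inner zone (n = 3) of the medial meniscus after enzymatic isolation, and explants were taken from outer zone tissue (n = 3), inner zone tissue (n = 3) and full-thickness femoral cartilage (n = 3). Explants were first held briefly in medium with antibiotic and antimycotic at a raised concentration, a step not described for the cells. Explants were then kept for 3 days before harvest in the serum-containing medium also used for the cells. This medium held the same agents at a lower concentration. No sample carried a genetic change, and no drug treatment beyond these agents is described. The P3 cells were not matched to the tissue donors. Tissue RNA was extracted by freezer milling in TRIzol followed by a column, and cell RNA by the column alone, so extraction and passaging cannot be told apart.

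Oxidative phosphorylation passes electrons from NADH and succinate through complexes I to IV to oxygen, pumps protons across the inner mitochondrial membrane and uses the gradient to make ATP in complex V. Mitochondrial DNA encodes core subunits of complexes I, III, IV and V, while the remaining subunits, all of complex II and the assembly factors are nuclear and are imported. Cartilage and the inner meniscus have little or no blood supply, and their cells are known to rely largely on glycolysis.

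Libraries held 24440213 to 43304412 reads assigned to genes. The groups were checked against marker genes of the cell types they could hold. The 5 measured cartilage markers summed to 172 to 193 CPM (read counts scaled to library size) in outer P3 cells, 293 to 482 in inner P3 cells, 2490 to 10400 in outer tissue, 5080 to 29200 in inner tissue and 35400 to 94000 in cartilage. Endothelial markers summed to 9.76 to 504 CPM in outer tissue, where library 2 was the lowest, and to at most 14.9 CPM in every other group. Fibroblast markers summed to 153000 to 220000 CPM in P3 cells, against 5580 to 10700 in meniscus tissue and 5910 to 18600 in cartilage, and markers of cycling cells to 84.9 to 249 CPM in P3 cells, against 24.3 to 121 in meniscus tissue and 13 to 22.7 in cartilage. The 6 fibroblast markers were split between meniscus tissue and cartilage (edgeR, adjusted p under 0.01). Relative to cartilage, 4 rose and 2 fell in outer tissue, against 13.7% and 11.6% of all genes. In inner tissue 3 rose and 2 fell, against 8.45% and 8.21%. The part of cell composition in the differences below was not tested, and fewer cells of a type and less RNA per cell cannot be told apart in bulk libraries.

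P3 cells carried less mitochondrially encoded RNA than tissue. The 13 mitochondrial genes summed to 8991 and 13937 CPM in outer P3 cells, against 19874, 16270 and 19936 in outer tissue. They summed to 9055, 11506 and 9527 CPM in inner P3 cells, against 20466, 19330 and 18886 in inner tissue, and to 19113, 18660 and 16062 in cartilage. The sums of P3 cells and tissue did not overlap in either zone, and meniscus tissue overlapped with cartilage. As a share of all reads, mitochondrial genes took 0.907% to 1.5% in P3 cells, 1.78% to 2.22% in meniscus tissue and 1.27% to 1.79% in cartilage.

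The summed nuclear members were also lower in P3 cells, and NDUFA4L2 weighed on the ratio between the genomes in cartilage. The 65 nuclear members summed to 3061 to 3244 CPM in P3 cells, 3652 to 4982 CPM in meniscus tissue and 4746 to 6206 CPM in cartilage. NDUFA4L2 alone supplied 829 to 1682 CPM of the cartilage sums, and without it the nuclear sums were 3058 to 3242 CPM in P3 cells, 3450 to 4504 in meniscus tissue and 3917 to 4524 in cartilage. The log2 ratio of summed mitochondrial to summed nuclear reads, without NDUFA4L2, averaged 1.81 ± 0.48 in outer P3 cells (SD, n = 2) and 2.27 ± 0.05 in outer tissue (n = 3). It averaged 1.68 ± 0.20 in inner P3 cells, 2.20 ± 0.12 in inner tissue and 2.10 ± 0.24 in cartilage (SD, n = 3 each). With NDUFA4L2 counted, the cartilage mean was 1.74 ± 0.33, so that the difference of P3 cells from cartilage was 0.00 with the gene and -0.36 without it. The outer P3 value rested on 2 unlike libraries, at 1.47 and 2.15. With NDUFA4L2 counted, the difference of outer P3 cells from outer tissue was -0.37, and it was -0.03 without library 147 and -0.71 without library 148. The plot of summed levels by library shows these values.

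**Figure D1:**
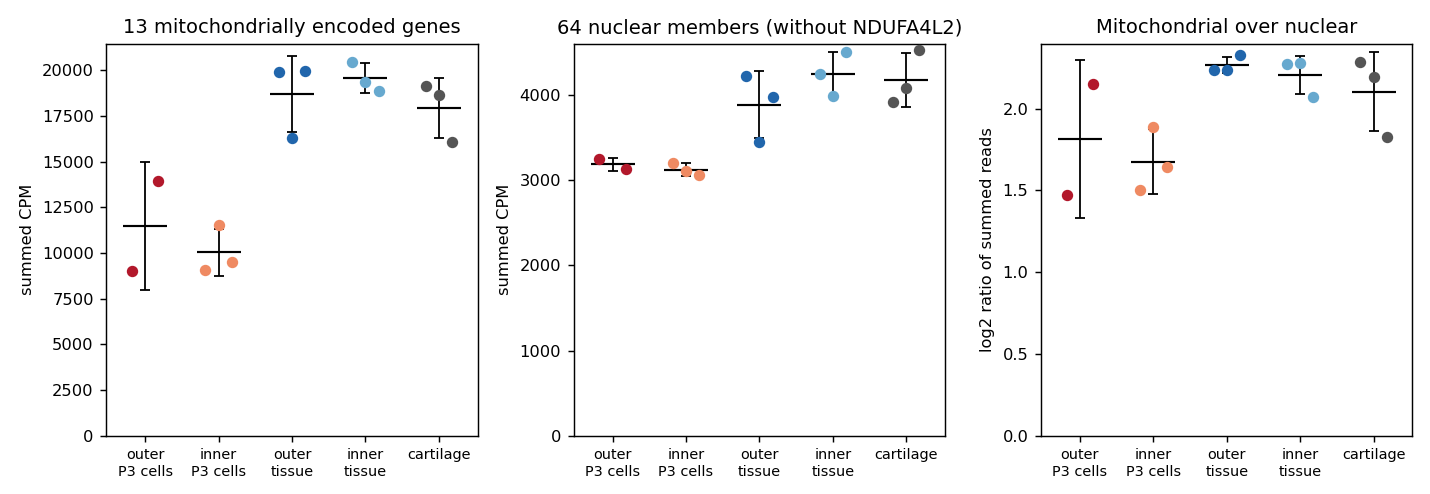
Summed CPM of the mitochondrially encoded genes (left) and of the nuclear members without NDUFA4L2 (middle), and the log2 ratio of their summed reads (right), in 5 groups. Points are libraries, horizontal lines group means and bars SD; mitochondrial sums of P3 cells lie at 8991 to 13937 CPM, below all tissue and cartilage libraries.

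Among mitochondrial genes, 8 of 13 fell in outer P3 cells relative to outer tissue and 8 of 13 in inner P3 cells relative to inner tissue (edgeR quasi-likelihood test, adjusted p under 0.01), and none rose. The 8 genes were the same in both comparisons, which share no libraries: ATP6, ND3, ND4L, CYTB, ND4, ND2, COX2 and COX3. The comparisons are still not independent, because both tissue zones were sampled from the same menisci and all libraries were fitted together. Over all 15707 genes tested, 12.1% fell and 12.9% rose in the outer comparison, and 18.5% fell and 20.1% rose in the inner comparison. Without ATP8, whose fitted value is not interpretable, the median log2 fold change of the mitochondrial genes was -1.32 in the outer zone and -1.47 in the inner zone, against -0.01 and 0.01 over all genes. The outer count was 4 without outer P3 library 147, and 5 when only the libraries of that comparison were fitted.

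ATP6, a proton-channel subunit of complex V, changed most in both zones. It was at 437 and 589 CPM in outer P3 cells, against 2790, 1809 and 2379 CPM in outer tissue. It was at 396, 551 and 521 CPM in inner P3 cells, against 2631, 2451 and 2567 CPM in inner tissue. The log2 fold change was -2.18 ± 0.28 (SE, adjusted p = 0.000108) in the outer zone and -2.38 ± 0.24 (adjusted p = 7.88e-06) in the inner zone, and the libraries did not overlap.

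CYTB, the catalytic cytochrome b of complex III, was at 390 and 383 CPM in outer P3 cells and at 1346, 1176 and 1677 CPM in outer tissue. In inner P3 cells it was at 354, 318 and 511 CPM, against 1442, 1514 and 1182 CPM in inner tissue. All 5 cell libraries lay below all 6 tissue libraries, with log2 fold changes of -1.86 ± 0.26 (adjusted p = 0.000187) and -1.81 ± 0.23 (adjusted p = 3.39e-05) for the outer and inner zones. COX3, a core subunit of complex IV, was at 1382 and 2018 CPM in outer P3 cells, against 4091, 3750 and 4117 CPM in outer tissue, a log2 fold change of -1.23 ± 0.21 (adjusted p = 0.000645). In inner P3 cells COX3 was at 1386, 1804 and 1805 CPM, against 4664, 4357 and 4567 CPM in inner tissue, a log2 fold change of -1.44 ± 0.18 (adjusted p = 3.84e-05). ND3, a small membrane subunit of complex I, fell by 2.12 ± 0.22 on the log2 scale in outer P3 cells and by 2.09 ± 0.19 in inner P3 cells.

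COX1 did not pass in either zone. This catalytic subunit of complex IV was at 4439 and 7103 CPM in outer P3 cells and at 4976, 3892 and 5572 CPM in outer tissue. It was at 4524, 5397 and 3935 CPM in inner P3 cells and at 4664, 4294 and 4811 CPM in inner tissue, with 5541, 4136 and 4048 CPM in cartilage. The groups overlapped, and the log2 fold changes were 0.26 ± 0.26 (adjusted p = 0.444) for the outer and 0.01 ± 0.23 (adjusted p = 0.982) for the inner zone. COX1 therefore took 49.4% and 51.0% of mitochondrial reads in outer P3 cells and 41.3% to 50% in inner P3 cells, against 23.9% to 27.9% in outer tissue, 22.2% to 25.5% in inner tissue and 22.2% to 29.0% in cartilage. ND5, a proton-pumping subunit of complex I, also overlapped, with log2 fold changes of -0.23 ± 0.26 and -0.51 ± 0.23 in the outer and inner comparisons. COX1 and ND5 are the longest of these genes, at 1545 and 1821 bases.

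ND6 is the protein-coding gene on the opposite strand of mitochondrial DNA, and the strand setting of the read counting is not given in the sources used here. It was at 24.5 and 43.4 CPM in outer P3 cells, against 24.1, 26.2 and 60.8 CPM in outer tissue. In inner P3 cells it was at 23.1, 33.2 and 20.6 CPM, against 15.2, 24.2 and 40.5 CPM in inner tissue. These ranges overlapped in both zones. ND1, a membrane subunit of complex I, was at 63.5 and 214 CPM in outer P3 cells, against 280 to 314 CPM in outer tissue, and at 58.0, 211 and 86.3 CPM in inner P3 cells, against 295 to 307 CPM in inner tissue. The ND1 ranges did not overlap, yet the spread among the cells left the adjusted p at 0.134 and 0.0307 in the outer and inner zones.

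**Figure D2:**
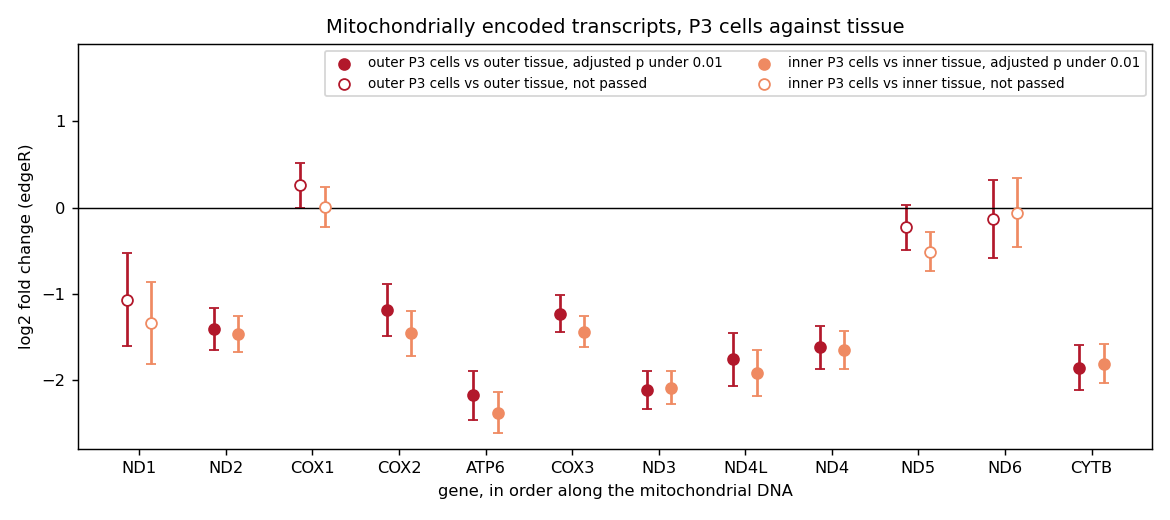
edgeR log2 fold changes with SE bars for 12 mitochondrially encoded genes (ATP8 left out) in their order along mitochondrial DNA, for outer P3 cells against outer tissue and inner P3 cells against inner tissue. Filled points passed adjusted p under 0.01; COX1 and ND6 lie near 0 and ND5 at -0.23 and -0.51, while ATP6 and ND3 lie below -2.

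ATP8, a small subunit of complex V, had reads in 3 libraries. It was at 8.21 CPM in outer P3 library 148, 6.71 CPM in inner P3 library 148 and 12.7 CPM in cartilage library 3, and had 0 reads in the other 11 libraries, so no fold change was taken. The same 3 libraries had the highest ND1 level of their groups, at 214, 211 and 538 CPM. The gene is printed because it shares bases with ATP6 and with the nuclear genome. It lies at chrMT:8959-9162 on the plus strand of Sscrofa11.1 (RefSeq annotation), and the last 43 of its 204 bases, at chrMT:9120-9162 and in capitals, belong also to ATP6.
ATP8: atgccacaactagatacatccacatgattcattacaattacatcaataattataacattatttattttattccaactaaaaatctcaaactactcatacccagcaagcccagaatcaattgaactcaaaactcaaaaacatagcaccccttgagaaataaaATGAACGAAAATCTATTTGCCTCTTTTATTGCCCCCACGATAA

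The deposited counts were restricted to reads with a single genomic location, and fragments of mitochondrial DNA are copied in the nuclear genome. Of all 50-base windows of a gene, the share with an identical nuclear copy in Sscrofa11.1 was 49.7% for ND1, 48.4% for ATP8, 28.7% for COX1, 24.7% for COX2, 12.7% for ND6 and 9.9% for ND2. It was 0.0% to 3.8% for ATP6, COX3, ND3, ND4L, ND4, ND5 and CYTB. Genes with few such windows therefore include those that fell most and also ND5. Levels of ND1, ATP8, COX1 and COX2 are uncertain for this reason, and the part of nuclear copies in their differences was not tested.

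Levels per length were compared within groups. Per kilobase, COX1 was the highest mitochondrial transcript in outer P3 cells, at 3740 ± 1220 CPM (SD, n = 2), and in inner P3 cells, at 2990 ± 476 CPM per kilobase (n = 3). In outer tissue, inner tissue and cartilage the highest was COX3, at 5080 ± 261, 5780 ± 200 and 4750 ± 163 CPM per kilobase (SD, n = 3 each). ATP6 and then COX1 followed. Identical nuclear copies covered 28.7% of the 50-base windows of COX1 and 0.6% of those of ATP6. The order of ATP6 and COX1 in tissue and cartilage is therefore uncertain. ND6 and ATP8 were the lowest in all groups.

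Nuclear members also fell in P3 cells. In the outer zone 15 of 62 tested nuclear members fell and 1 rose, with a median log2 fold change of -0.35, against -0.01 over all genes. In the inner zone 30 fell and 2 rose, with a median of -0.51, against 0.01 over all genes. Of all genes, 12.1% fell and 12.9% rose in the outer comparison, and 18.5% fell and 20.1% rose in the inner comparison. The same shares stand against the counts by complex below. All 15 that fell in the outer zone also fell in the inner zone, which was 50% of the inner list, in comparisons that are not independent. The outer count of 16 was 6 without outer P3 library 147, 4 without outer P3 library 148, 3 when only the libraries of the comparison were fitted and 26 with DESeq2. With DESeq2, 4 of the 26 were higher and 22 lower. The plot by complex shows the members beside each other.

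**Figure D3:**
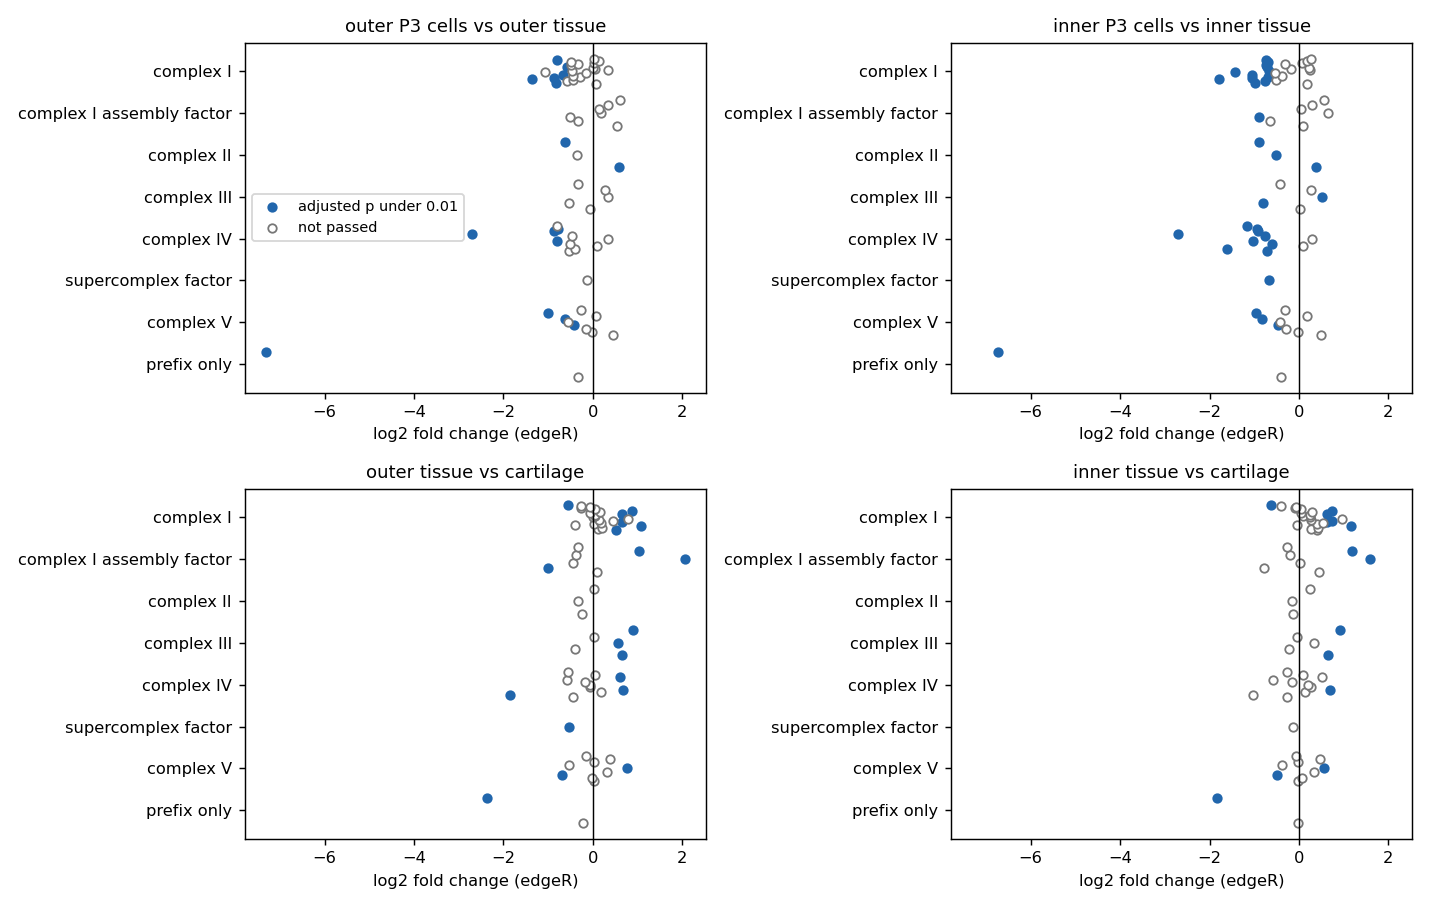
edgeR log2 fold change of 61 tested nuclear members (COX6B2 left out) by complex in 4 comparisons; filled points passed adjusted p under 0.01. In the P3 panels most filled points lie below 0 (15 in the outer and 30 in the inner zone), while the meniscus panels hold filled points on both sides, and NDUFA4L2 lies farthest to the left in each panel.

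In complex I, 6 of 23 subunits fell in outer P3 cells and 12 of 23 in inner P3 cells, and none rose. Of all genes, 12.1% fell in the outer and 18.5% in the inner comparison. NDUFB10, an accessory subunit of the membrane arm, was at 86.0 and 78.0 CPM in outer P3 cells, against 291, 151 and 189 CPM in outer tissue. It was at 81.2, 71.9 and 81.9 CPM in inner P3 cells, against 279, 243 and 289 CPM in inner tissue, and the groups did not overlap. Its log2 fold changes were -1.36 ± 0.23 (adjusted p = 0.000575) and -1.79 ± 0.20 (adjusted p = 1.49e-05) in the outer and inner zones. Among the 52 nuclear members with a length in the reference, which leave out COX4I1, NDUFB10 ranked highest per kilobase of the longest transcript in both tissue groups and in cartilage, and 8 and 7 in outer and inner P3 cells. NDUFA4L2 was counted there with a longest transcript of 6639 bases and ranked 4 in cartilage, at 181 CPM per kilobase. Its curated RefSeq transcript starts inside the gene, and a shorter length would raise its level. The first rank of NDUFB10 in cartilage is therefore uncertain.

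Core and accessory subunits of complex I were then counted apart, a split made with the values in view. Of 16 accessory subunits, 5 fell in outer P3 cells and 10 in inner P3 cells, with medians of -0.47 and -0.70 on the log2 scale. Of the 7 nuclear core subunits, which carry the flavin, the iron-sulfur clusters and the quinone site, 1 fell in outer P3 cells and 2 in inner P3 cells, with medians of 0.03 and 0.06. NDUFV2, an iron-sulfur core subunit, fell in both zones, by 0.80 ± 0.15 and 0.73 ± 0.13 on the log2 scale. NDUFS1, the largest core subunit, had log2 fold changes of 0.34 and 0.25, neither past the threshold. Among the 7 assembly factors, NDUFAF3 fell in inner P3 cells (log2 fold change -0.89 ± 0.18, adjusted p = 0.00115), and 0 passed in the outer zone, where 3 had an unadjusted p under 0.05 and 1 passed with DESeq2.

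Complex II links the citric acid cycle to the chain, and its 3 members moved in different directions. SDHA, the flavoprotein that oxidizes succinate, was at 119 and 102 CPM in outer P3 cells, against 74.0, 72.6 and 72.7 CPM in outer tissue. It was at 103, 108 and 98.5 CPM in inner P3 cells, against 79.7, 73.5 and 83.4 CPM in inner tissue. SDHA rose in both zones without overlap, by 0.59 ± 0.12 (adjusted p = 0.00158) and 0.39 ± 0.10 (adjusted p = 0.00753) on the log2 scale. SDHD, a membrane anchor, fell by 0.62 ± 0.12 and 0.89 ± 0.11 in the outer and inner zones. SDHB, the iron-sulfur subunit, fell in inner P3 cells (-0.52 ± 0.12, adjusted p = 0.00334) and had a log2 fold change of -0.36 ± 0.14 in the outer zone. SDHC, the other membrane anchor, is unnamed in the table and no member, and its row fell by 0.86 ± 0.12 (adjusted p = 0.000171) in the outer and by 1.15 ± 0.11 (adjusted p = 3.96e-06) in the inner zone.

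In complex III 0 of 5 members passed in the outer comparison with edgeR, where 3 had an unadjusted p under 0.05, and 0 with DESeq2. In the inner zone UQCRC1, a core protein of the matrix side, rose, and UQCR10, a small membrane subunit, fell. UQCRC1 was at 106, 95.6 and 95.5 CPM in inner P3 cells, against 56.7, 80.5 and 70.6 CPM in inner tissue, a log2 fold change of 0.52 ± 0.14 (adjusted p = 0.00848). UQCR10 was at 27.9, 28.5 and 28.8 CPM in inner P3 cells, against 50.2, 42.5 and 56.4 CPM in inner tissue, a log2 fold change of -0.81 ± 0.16 (adjusted p = 0.000971). CYC1, the cytochrome c1 that hands electrons to cytochrome c, was at 66.7 to 73.0 CPM in P3 cells and at 65.2 to 73.4 CPM in meniscus tissue.

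In complex IV, 4 of 12 tested members fell in outer P3 cells and 9 of 12 in inner P3 cells, against 12.1% and 18.5% of all genes. COX4I1, the ubiquitous form of subunit 4 and the most abundant nuclear member of the complex, was at 203 and 173 CPM in outer P3 cells, against 321, 235 and 257 CPM in outer tissue. It was at 196, 177 and 184 CPM in inner P3 cells, against 315, 276 and 319 CPM in inner tissue. The inner difference passed the test, at -0.71 ± 0.15 (adjusted p = 0.00154), and the outer difference was -0.53 ± 0.17 (adjusted p = 0.0253) with no overlap between libraries.

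COX7A1, the isoform of subunit 7a known from heart and skeletal muscle, had the largest change in complex IV, COX6B2 with its few reads left aside. It was at 3.10 and 2.97 CPM in outer P3 cells, against 24.7, 14.4 and 20.3 CPM in outer tissue. It was at 3.8, 2.88 and 2.31 CPM in inner P3 cells, against 19.8, 21.6 and 17.0 CPM in inner tissue, with 27.7, 30.3 and 29.9 CPM in cartilage. The log2 fold change was -2.70 in both zones, with an SE of 0.26 in the outer and 0.22 in the inner zone. Its widely expressed counterpart COX7A2 fell less, by 0.87 ± 0.16 and 0.91 ± 0.14 on the log2 scale, and was at 32.4 to 40.8 CPM in P3 cells, against 56.6 to 85.9 CPM in meniscus tissue. Skeletal muscle markers summed to 5.22 to 17.5 CPM in P3 cells, 7.96 to 12.1 in meniscus tissue and 13.1 to 16.0 in cartilage.

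COX4I2, the isoform of subunit 4 that is induced by low oxygen in human cells, varied within tissue groups. It was at 43.4 and 31.2 CPM in outer P3 cells, against 83.1, 36.1 and 28.6 CPM in outer tissue. It was at 28.9, 36.1 and 21.8 CPM in inner P3 cells, against 96.4, 47.2 and 119 CPM in inner tissue, with 154, 193 and 185 CPM in cartilage. It fell in inner P3 cells (-1.60 ± 0.39, adjusted p = 0.00443), whereas outer cells and tissue overlapped (-0.40 ± 0.44, adjusted p = 0.494). The difference between the zones in this change was 1.2 ± 0.58 (SE) on the log2 scale and did not pass the test of the interaction (adjusted p = 0.68). Of the remaining tissue-restricted isoforms, COX6A2 stayed at 11.3 to 24.3 CPM in meniscus samples with no call, and COX6B2 had 52 and 53 reads in outer and inner P3 cells, against 1 and 2 reads in outer and inner tissue and 2 in cartilage.

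In complex V, 3 of 9 members fell in each zone and none rose: ATP5I, ATP5G2 and ATP5F1. The share of all genes that fell was 12.1% in the outer and 18.5% in the inner comparison. ATP5I, the small subunit e of the membrane part, was at 27.5 and 22.5 CPM in outer P3 cells, against 66.3, 38.7 and 44.1 CPM in outer tissue, and fell by 0.99 ± 0.20 on the log2 scale. In inner P3 cells it was at 28.7, 28.2 and 24.3 CPM, against 53.9, 50 and 53.9 CPM in inner tissue, and fell by 0.96 ± 0.17. ATP5A1, the alpha subunit of the soluble part, which binds nucleotides beside the catalytic beta subunit, was higher in all P3 libraries, at 300 and 356 CPM in outer P3 cells, against 209, 228 and 280 CPM in outer tissue, and at 310, 352 and 319 CPM in inner P3 cells, against 235, 227 and 237 CPM in inner tissue. With log2 fold changes of 0.46 ± 0.15 (adjusted p = 0.0316) and 0.49 ± 0.14 (adjusted p = 0.0101) it missed the threshold in both zones. Of the 3 genes for the c ring, ATP5G2 fell by 0.62 ± 0.16 and 0.83 ± 0.14, ATP5G1 had log2 fold changes of -0.55 ± 0.15 and -0.43 ± 0.14, and ATP5G3 of 0.08 ± 0.14 and 0.17 ± 0.12. COX7A2L, a factor that joins complexes III and IV, fell in inner P3 cells (-0.67 ± 0.12) and had a log2 fold change of -0.12 ± 0.14 in outer P3 cells.

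NDUFA4L2 showed the widest range of all members. It is a paralogue of the complex IV subunit NDUFA4, and in human cells it is induced by hypoxia-inducible factors and lowers oxygen use. It was at 1.70 and 1.24 CPM in outer P3 cells, 2.88, 2.86 and 3.74 CPM in inner P3 cells, 366, 203 and 134 CPM in outer tissue, 329, 207 and 479 CPM in inner tissue, and 829, 1090 and 1682 CPM in cartilage. P3 cells, meniscus tissue and cartilage did not overlap, whereas the outer and inner tissue ranges did. The log2 fold change was -7.32 ± 0.61 (adjusted p = 5.97e-06) in outer P3 cells and -6.74 ± 0.49 (adjusted p = 8.35e-07) in inner P3 cells relative to tissue. Relative to cartilage it was -2.36 ± 0.39 (adjusted p = 0.000616) in outer tissue and -1.83 ± 0.39 (adjusted p = 0.00377) in inner tissue. The plot of the isoforms by library sets NDUFA4L2 beside COX4I2 and COX7A1.

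**Figure D4:**
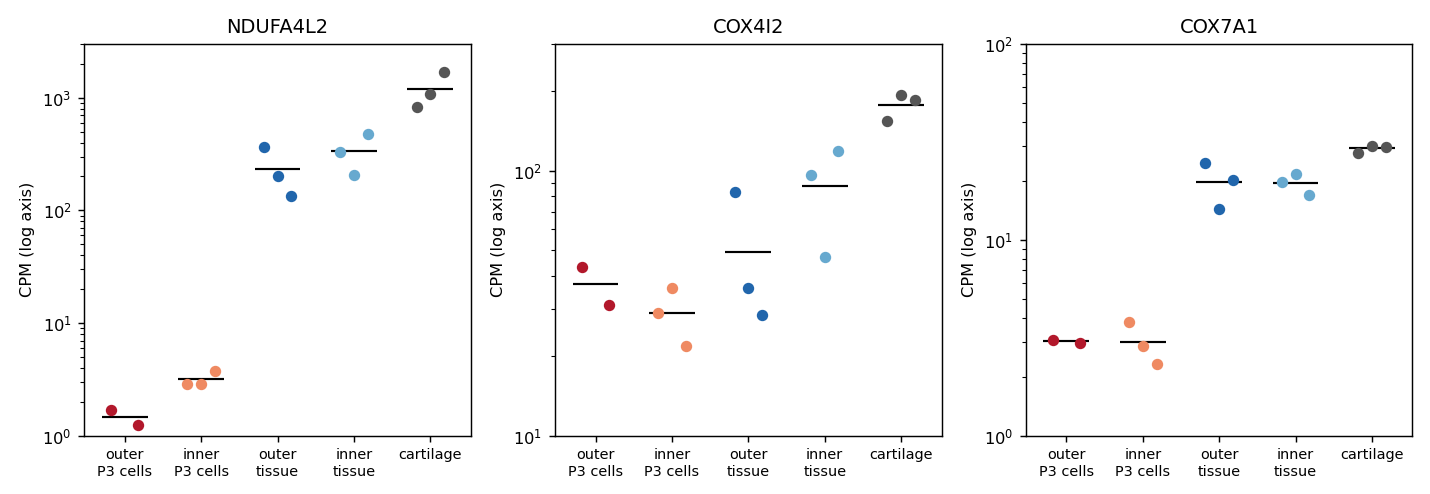
CPM on log axes of NDUFA4L2, COX4I2 and COX7A1 in each library of the 5 groups, with horizontal lines at the group means. NDUFA4L2 lies at 1.24 to 3.74 CPM in P3 cells and at 829 to 1682 CPM in cartilage, with meniscus tissue between.

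The promoter of NDUFA4L2 is printed because this gene varied most and is a known target of hypoxia-inducible factors in human cells. The window runs from 250 bases before to 50 bases after the start of the curated RefSeq transcript, at chr5:22542612-22542911 on the minus strand of Sscrofa11.1, and the capitals mark a match to the core of the hypoxia response element.
NDUFA4L2 promoter: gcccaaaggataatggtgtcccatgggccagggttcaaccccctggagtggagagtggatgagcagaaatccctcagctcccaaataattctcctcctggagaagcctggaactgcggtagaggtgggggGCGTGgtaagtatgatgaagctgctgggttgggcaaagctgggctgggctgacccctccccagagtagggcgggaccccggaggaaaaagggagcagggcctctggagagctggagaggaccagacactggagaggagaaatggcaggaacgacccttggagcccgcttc
This core, ACGTG or GCGTG on either strand, had 1 match here, and 29 of 52 nuclear members with a promoter in the reference held it (55.8%), against 49.6% of 19532 promoters of the same length. The ETS family site CCGGAAG was held by 15 of the 52 (28.8%), against 11% of all promoters, and the NRF1 site TGCGCATG by 4 (7.69%), against 2.10%. The 3 motifs were searched on both strands, and none contains another. A match is a description of the letters and not a measured binding site.

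Genes known to respond to low oxygen gave further values for the same libraries. Of 14 measured genes of that list, 3 fell and 1 rose in outer P3 cells and 7 fell and 1 rose in inner P3 cells, with median log2 fold changes of -0.74 and -1.28. Of all genes, 12.1% fell and 12.9% rose in the outer and 18.5% fell and 20.1% rose in the inner comparison, with medians of -0.01 and 0.01. LDHA, which makes lactate from pyruvate, fell by 1.68 ± 0.24 on the log2 scale in the outer and by 1.72 ± 0.21 in the inner zone. PFKFB3, an activator of glycolysis, fell by 2.42 ± 0.32 and 2.41 ± 0.27, and KDM3A, a histone demethylase, rose by 0.86 ± 0.16 and 0.69 ± 0.14. The list summed to 806 to 875 CPM in P3 cells, 1280 to 2130 CPM in meniscus tissue and 1720 to 2870 CPM in cartilage.

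Transcript length moved with the change in P3 cells. Lengths were found for 51 of the 62 tested nuclear members and for 12894 other nuclear genes. Nuclear members under 1000 bases (n = 31) had a median log2 fold change of -0.50 in the outer and -0.73 in the inner zone, against -0.61 and -0.70 for 606 other genes of that length. Members of 1000 bases or more, apart from 2 in the longest class, had medians of 0.03 to 0.54 by length class in the outer zone and -0.01 to 0.12 in the inner zone, against -0.31 to 0.08 and -0.34 to 0.16 for other genes. Across the 51 members, Spearman's rho between length and log2 fold change was 0.52 in each zone, and across the other genes it was 0.18 in the outer and 0.20 in the inner zone. Without NDUFA4L2, whose longest transcript has 6639 bases, it was 0.61 in each zone across 50 members. Members share libraries, so these are descriptions. The median length of complex I accessory subunits was 668.5 bases and that of the core subunits 1148 bases. The part of length and of the extraction method in the fall of the small subunits was not tested.

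**Figure D5:**
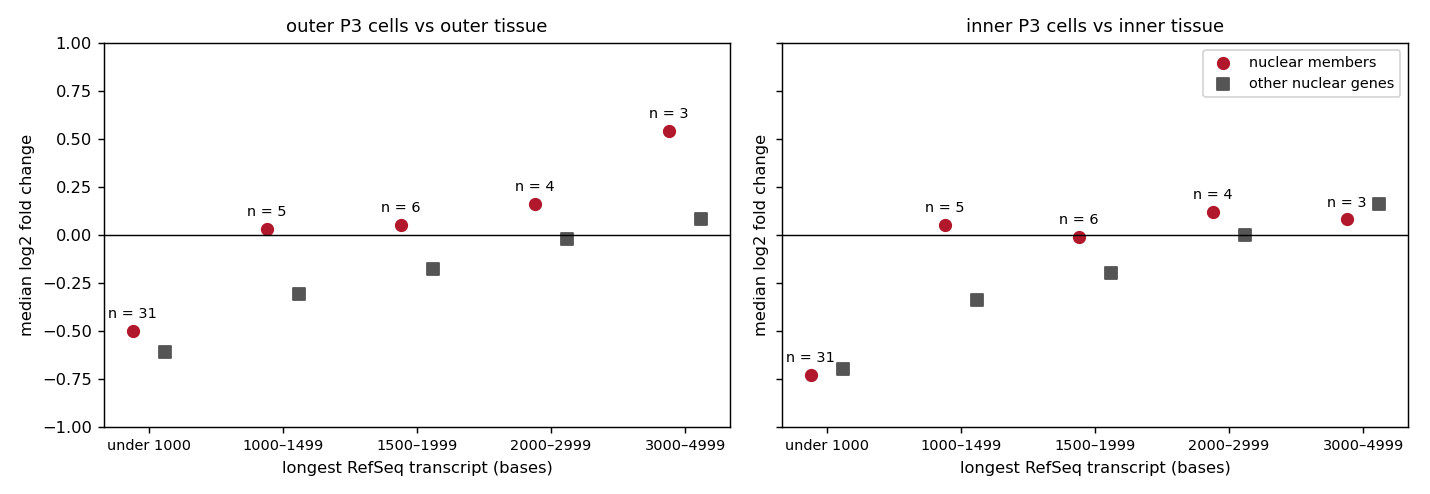
Median log2 fold change by length of the longest RefSeq transcript, for nuclear members (circles, with their number) and other nuclear genes (squares), in outer P3 cells against outer tissue and inner P3 cells against inner tissue. The class under 1000 bases has the lowest medians in both kinds of gene, -0.50 and -0.73 for members and -0.61 and -0.70 for the others; the longest class held 2 members and is not drawn.

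The lists of genes around the chain were counted in the same way. Of 17 measured genes of the citric acid cycle and pyruvate dehydrogenase, 6 rose and none fell in outer P3 cells, and 10 rose and 1 fell in inner P3 cells, with medians of 0.53 and 0.61 on the log2 scale, against -0.01 and 0.01 over all genes. Of all genes, 12.9% rose and 12.1% fell in the outer and 20.1% rose and 18.5% fell in the inner comparison. DLST, the transferase of the oxoglutarate dehydrogenase complex, rose by 1.09 ± 0.13 and 1.25 ± 0.12, and IDH2, mitochondrial isocitrate dehydrogenase, by 0.78 ± 0.17 and 1.00 ± 0.16. Of 33 measured assembly factors outside the member rule, 3 rose and 3 fell in outer P3 cells and 3 rose and 7 fell in inner P3 cells, with medians of 0.03 and 0.02, close to those of all genes. COX10, which makes the heme precursor of complex IV, rose by 1.77 ± 0.26 and 2.92 ± 0.26, and COA3, a complex IV assembly factor, fell by 1.14 ± 0.14 and 0.98 ± 0.12.

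Of 24 measured nuclear genes that make and handle mitochondrial RNA, 3 rose and 2 fell in outer P3 cells, and 9 rose and 3 fell in inner P3 cells. Their median log2 fold changes were 0.17 and 0.23, against -0.01 and 0.01 over all genes, of which 12.9% rose and 12.1% fell in the outer and 20.1% rose and 18.5% fell in the inner comparison. POLRMT, the mitochondrial RNA polymerase, rose in inner P3 cells by 1.01 ± 0.11 on the log2 scale, and TFAM, which packages mitochondrial DNA and starts its transcription, fell there by 0.71 ± 0.17. SLIRP, which stabilizes mitochondrial messenger RNA, fell by 0.98 ± 0.19 and 1.23 ± 0.17 in the outer and inner zones, and REXO2, which degrades short mitochondrial RNA, rose by 1.47 ± 0.14 and 1.43 ± 0.13. Of 7 genes of mitochondrial DNA replication, 2 rose and 3 fell in outer P3 cells and 1 rose and 3 fell in inner P3 cells, with medians of 0.02 and -0.39. POLG, the DNA polymerase of mitochondria, rose by 0.74 ± 0.12 and 1.17 ± 0.11. Of 12 regulators of mitochondrial biogenesis, 1 rose and 2 fell in outer P3 cells and 3 rose and 2 fell in inner P3 cells, with medians of 0 and 0.07, and NRF1, a transcription factor of respiratory genes, fell by 0.61 ± 0.15 and 0.79 ± 0.13. Of 15 carriers and electron donors, 4 rose and none fell in outer P3 cells, and 3 rose and 4 fell in inner P3 cells, with medians of -0.01 and 0.15.

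The comparison of meniscus tissue with cartilage asked how the chain differs between both tissues in their native matrix. Of the 13 mitochondrial genes CYTB passed, and it rose in both zones. Its levels of 1346, 1176 and 1677 CPM in outer tissue and 1442, 1514 and 1182 CPM in inner tissue were all above 654, 612 and 424 CPM in cartilage. The log2 fold changes were 1.31 ± 0.22 (adjusted p = 0.000692) and 1.29 ± 0.22 (adjusted p = 0.00121) for outer and inner tissue, which share the cartilage libraries. The other mitochondrial genes apart from ATP8 had log2 fold changes of -0.33 to 1.09 in outer tissue, with ND6 the highest at 1.09 ± 0.41 (adjusted p = 0.0477). Over all genes, 13.7% rose and 11.6% fell in outer tissue, and 8.45% rose and 8.21% fell in inner tissue.

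Of 62 nuclear members, 13 rose and 6 fell in outer tissue relative to cartilage, and 11 rose and 3 fell in inner tissue. The shares of all genes were 13.7% and 11.6% in outer tissue, and 8.45% and 8.21% in inner tissue. The medians of the members were 0.03 and 0.09 without COX6B2, against 0.06 and 0 over all genes. Both comparisons called 10 risers: CYC1 and UQCRQ of complex III, NDUFA6, NDUFB7, NDUFS3 and NDUFS6 of complex I, the assembly factors NDUFAF4 and NDUFAF6, COX5B of complex IV and ATP5G1 of complex V. CYC1 was at 72.5, 69.9 and 65.2 CPM in outer tissue and 67.9, 68.0 and 73.4 CPM in inner tissue, against 46.1, 40.1 and 45.9 CPM in cartilage. This was a log2 fold change of 0.65 ± 0.09 (adjusted p = 0.000258) for outer and 0.66 ± 0.09 (adjusted p = 0.000352) for inner tissue, without overlap. The inner count of 14 was 9 without cartilage library 2, 8 without cartilage library 3, 2 when only the libraries of the comparison were fitted and 27 (25 higher and 2 lower) when library totals replaced the scaling factors. The outer count of 19 was 5 when only its own libraries were fitted and 22 (19 higher and 3 lower) with library totals. Library totals shifted the median of all genes by 0.31 on the log2 scale in outer and by 0.24 in inner tissue.

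NDUFAF4, a complex I assembly factor of low level, changed most among the genes that rose. It was at 3.04, 5.12 and 4.58 CPM in outer tissue and 2.67, 2.84 and 3.70 CPM in inner tissue, against 1.59, 0.902 and 0.519 CPM in cartilage. The log2 fold changes were 2.07 ± 0.38 (adjusted p = 0.00119) and 1.60 ± 0.38 (adjusted p = 0.00763) for outer and inner tissue. NDUFA6, an accessory subunit of the matrix arm, rose by 1.08 ± 0.22 and 1.16 ± 0.22 on the log2 scale, and UQCRQ, a small subunit of complex III, by 0.91 ± 0.14 in each. COX5B, a zinc-binding subunit of complex IV, was at 112 to 127 CPM in outer tissue and 119 to 128 CPM in inner tissue, against 64.3 to 86.8 CPM in cartilage.

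Relative to cartilage, 6 of 62 nuclear members fell in outer tissue and 3 in inner tissue, against 11.6% and 8.21% of all genes. NDUFA4L2, NDUFV3 and ATP5D fell in both zones, and NDUFAF2, COX4I2 and COX7A2L passed in outer tissue. NDUFV3, an accessory subunit of the flavoprotein module, was at 47.3, 40.9 and 42.5 CPM in outer tissue and 41.9, 41.5 and 41.9 CPM in inner tissue, against 58.8, 62.4 and 71.0 CPM in cartilage. It fell by 0.56 ± 0.10 and 0.62 ± 0.10 on the log2 scale. ATP5D, the delta subunit of the rotor, fell by 0.69 ± 0.11 and 0.49 ± 0.11. COX4I2 fell by 1.85 ± 0.40 (adjusted p = 0.00289) in outer tissue and had a log2 fold change of -1.02 ± 0.39 (adjusted p = 0.0647) in inner tissue, and COX7A1 had -0.57 ± 0.20 and -0.59 ± 0.20, all below the cartilage libraries. Of the 3 complex II members 0 passed in either zone with edgeR or DESeq2, and 2 in outer and 1 in inner tissue had an unadjusted p under 0.05. The SDHC row, outside the member list, rose in inner tissue by 0.45 ± 0.11 (adjusted p = 0.00671) and had a log2 fold change of 0.24 ± 0.11 in outer tissue. Among the cartilage samples, library 3 had the highest NDUFA4L2 and the lowest mitochondrial sum.

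P3 cells were also set against cartilage, taking the mean of both cell groups. Of the 13 mitochondrial genes 8 fell and none rose, and of the 62 nuclear members 28 fell and 10 rose, against 24.8% and 26.0% of all genes. CYTB did not pass (-0.53 ± 0.20, adjusted p = 0.0314), and ND1 passed (-1.51 ± 0.41, adjusted p = 0.0065). The log2 fold change was -2.38 ± 0.21 for ATP6, -9.12 ± 0.46 for NDUFA4L2, -3.28 ± 0.19 for COX7A1 and -1.79 ± 0.17 for NDUFB10. The genes that rose included CYC1 (0.64 ± 0.09), UQCRC1 (0.87 ± 0.13), NDUFS3 (0.77 ± 0.11) and NDUFAF4 (2.26 ± 0.36). With library totals in place of the scaling factors the nuclear members split into 19 that rose and 20 that fell, with a shift of the median of all genes by 0.28. These values share the cartilage libraries with the comparison of meniscus tissue.

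No member separated the zones. Between outer and inner tissue 0 of 75 members passed with edgeR and 0 with DESeq2, 6 had an unadjusted p under 0.05 and the smallest adjusted p was 0.112, against 0.0318% of all genes called in either direction. Between outer and inner P3 cells 0 of 75 passed with either tool and 1 had an unadjusted p under 0.05, and 0% of all genes were called. The interaction, which asks whether the change with passaging differed between zones, gave 0 of 75 members with either tool, 1 at an unadjusted p under 0.05 and 0% of all genes. Log2 differences between the tissue zones, apart from COX6B2 and ATP8, reached -0.83 for COX4I2. A missed threshold does not show that the zones were alike.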

How the data were processed

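Per the labels and the study's methods, the authors trimmed reads with Trim Galore and cutadapt, mapped those of 20 or more bases to Sscrofa11.1 with STAR, kept reads with a single location and counted them per gene with HTSeq; versions, read length and the strand setting are not given in the sources used here. The deposited raw counts (whole reads per gene) were used, and the authors' normalized tables were not used. All library columns matched a sample. Rows with at least 10 reads summed over 14 libraries (15707 of 25880) were scaled by TMM and fitted in edgeR 4.0.16 (R 4.3.3), with a mean per group over all libraries and Benjamini-Hochberg adjustment over all rows. A member passed at an adjusted p under 0.01. CPM use the TMM scaled totals, and SE is the log2 fold change over the square root of the F statistic. The procedure was checked on simulated data. DESeq2 1.42.0, other scalings, filters and library sets, leave-one-out fits and a replicate block were alternatives. Libraries may not all come from separate animals, so p-values measure the spread between these samples. Members and gene lists were chosen with earlier results of these data known. Named in full were the mitochondrial genes, the members with the largest changes and highest levels per complex, and isoform pairs. Lengths, positions and sequences came from RefSeq on the same build, matched by symbol for 65 of 78 members, and nuclear copies from blastn 2.17.0. Values of some genes of the lists are not reported here.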

Additional observations from a re-analysis of the deposited data

How the results depend on the processing

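Of 145 calls of single members over all comparisons, 73 held under all alternatives and 72 lost the threshold under at least one, and none reversed. The numbers of nuclear members that passed ranged, leaving out 1 library at a time, from 4 to 18 for outer P3 cells against outer tissue, 26 to 33 for inner P3 cells against inner tissue, 14 to 20 for outer tissue against cartilage, 8 to 17 for inner tissue against cartilage and 31 to 39 for P3 cells against cartilage; those of mitochondrial genes ranged from 4 to 8, 8 to 9, 1 to 1, 1 to 1 and 7 to 9. Fitting only the libraries compared gave 3 nuclear and 5 mitochondrial genes for outer P3 cells against outer tissue, and 5 and 2 nuclear members for outer and inner tissue against cartilage. DESeq2 gave 26 nuclear members (4 higher and 22 lower) for outer P3 cells against outer tissue, and library totals without TMM 27 (25 higher and 2 lower) for inner tissue against cartilage. The log2 ratio of mitochondrial to nuclear reads ranged from -0.71 to -0.03 for outer P3 cells against outer tissue and from -0.20 to 0.48 for outer against inner P3 cells; without NDUFA4L2, an alternative chosen after seeing the data, it was 0.16 for outer tissue against cartilage, where it was 0.44 with the gene, and -0.36 for P3 cells against cartilage. Also chosen after seeing the data, adding the 17 nuclear rows named only by the reference gave 21 that fell and 1 that rose in outer P3 cells and 42 and 2 in inner P3 cells. The cause of these shifts was not tested, beyond the fewer libraries in the smaller fits.

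Both zones were sampled from the same menisci, but the labels number outer tissue 2, 3 and 6 and inner tissue 2, 3 and 5, so which explants share a meniscus is not settled, and no source ties the numbers of cartilage or P3 cells to an animal. Deviations of same-numbered libraries correlated at 0.336 and 0.164 between outer and inner tissue, against -0.262 to 0.181 for other numbers, and at 0.22 and 0.268 between outer and inner P3 cells, against -0.268 to 0.0148. The 2 outer P3 libraries deviate from their mean by mirrored amounts. Their correlations with a given inner P3 library therefore differ only in sign, and the range for other numbers is no separate comparison in P3 cells. Same-numbered meniscus and cartilage libraries correlated at -0.121 to 0.00206. With a replicate block 0 nuclear and 0 mitochondrial members passed for outer or inner tissue against cartilage. In that fit only numbers 2 and 3 occur in several libraries, so few degrees of freedom were left. Its counts of 0 cannot tell a lack of power from a lack of difference. For the zones 0 members passed with a block in tissue or in P3 cells. The block called 117 and 18 of all genes there, against 5 and 0 without it. P3 cells and tissue share no number, so no paired fit was possible there. With 2 or 3 libraries a group, small differences may have been missed.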
